A study of Mus musculus with 8 samples.

Results

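Hair keratins, inner root sheath keratins and the follicle's regulators were followed in mouse palm skin after an injection of PACAP. The set was fixed by gene name, as 33 genes that build or direct the hair follicle, and 32 of them had a probe on the array out of 29608 gene names. Its members were chosen with earlier results of these data known, so the shares of all genes set beside counts below describe and do not test. The missing name was Krt83. The set comprised 27 structural genes, of which 23 were keratins and the others Tchh, Dsg4, Padi3 and S100a3, and 5 transcription factors, Hoxc13, Foxn1, Msx2, Lef1 and Gata3.

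The hair shaft is built in the lower follicle from hair keratins, which pair as an acidic type I and a basic type II chain. The inner root sheath around it is made of its own keratins (Krt25 to Krt28 and Krt71 to Krt74) and of trichohyalin (Tchh), which is crosslinked after peptidylarginine deiminases such as Padi3 modify it. Hoxc13 and Foxn1 are known to activate hair keratin genes, Lef1 transmits Wnt signals in the hair matrix, Msx2 maintains shaft differentiation and Gata3 directs the inner root sheath. Footpad skin is known as hairless and rich in eccrine sweat glands, whereas the skin around the pads carries hair.

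The study asked how PACAP, a peptide that acts through the receptor PAC1R, alters gene expression in skin that sweats. C57BL/6J wild-type mice (WT) and Adcyap1r1 -/- mice lacking PAC1R (PAC1R KO), all males of 9 to 10 weeks, were injected intradermally under anesthesia with 5 µL of vehicle, saline containing BSA, or of vehicle with PACAP at 1e-07 mol/L. Forepaw skin was taken 30 or 60 min later, from 6 mice a genotype. PACAP and vehicle RNA of the same genotype and time were hybridised together on 2 arrays with swapped dyes, so 8 arrays held 4 pairs and 8 RNA samples. Each pair was 1 replicate, and it was not given how many mice entered an RNA sample. The paper describes the KO as Adcyap1r1 -/- with no limit to a tissue, so it is read as constitutive. Its skin would then have developed without the receptor.

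Each genotype had a slide of its own, which means that slide and genotype cannot be told apart. The markers of palm epidermis and eccrine gland were high in all 8 RNA samples, with Krt9 between 15.03 and 15.70 and Aqp5 between 13.49 and 14.36 on the log2 level scale, while Krt77 was well above background on both arrays in 1 sample. The Adcyap1r1 probe lay between 8.26 and 8.76 in the WT samples and between 7.91 and 8.56 in the KO samples. Its place relative to the deleted part of the gene is not given in the sources used here, so it does not check the genotype. Of the members, 22 were well above background on both arrays in all 8 samples, 6 in some and 4 in none. Precision is limited by how few arrays there were.

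Most structural genes were counted as higher after PACAP in WT skin at 60 min, and 14 of 27 in KO skin at 30 min. With another background correction, given below, 9 were counted in KO 30 min. In KO skin at 60 min 1 was counted as lower, while the median log2 ratio was -0.50. Set against other vehicle samples, the structural medians of both KO pairs changed sign, as given below. A gene was counted when its mean ratio of PACAP over vehicle was at least 2-fold or at most 0.5-fold, with the same direction and the scanner software's p below 0.01 on both arrays. That p speaks of 1 array and not of mice. In WT 60 min, 19 of 27 structural genes were counted as higher, where 0.659% of all genes were, and 0 as lower, where 0.115% of all genes were. In KO 30 min, 14 were counted as higher against 0.692% of all genes, and 1 as lower against 0.098%. In WT 30 min, 5 were counted as higher against 0.267% of all genes, and 2 as lower against 0.108%. In KO 60 min, 0 were counted as higher against 0.179% of all genes, and 1 as lower against 0.162%. Of the 5 transcription factors 0 were counted in any comparison, which at these shares says little for so few genes, and their log2 ratios lay between -0.52 and 0.41.

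The counts nested. The 5 structural genes higher in WT 30 min were among the 14 higher in KO 30 min, and those 14 were among the 19 higher in WT 60 min, although the comparisons share no RNA sample. The median log2 ratio of the 27 structural genes was 2.02 in WT 60 min (2.16 and 1.89 on the single arrays), 1.06 in KO 30 min (1.16 and 0.93), 0.32 in WT 30 min (0.39 and 0.20) and -0.50 in KO 60 min (-0.54 and -0.54). The median of all genes was 0.00 in each comparison. In KO 60 min 22 of the 27 genes were lower on both arrays, though most by less than the fold required. Background correction with normexp and loess, in place of the scanner software's ratios, reduced the genes counted as higher from 14 to 9 in KO 30 min and from 5 to 2 in WT 30 min, and the medians to 1.17 in WT 60 min and 0.56 in KO 30 min.

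**Figure D1:**
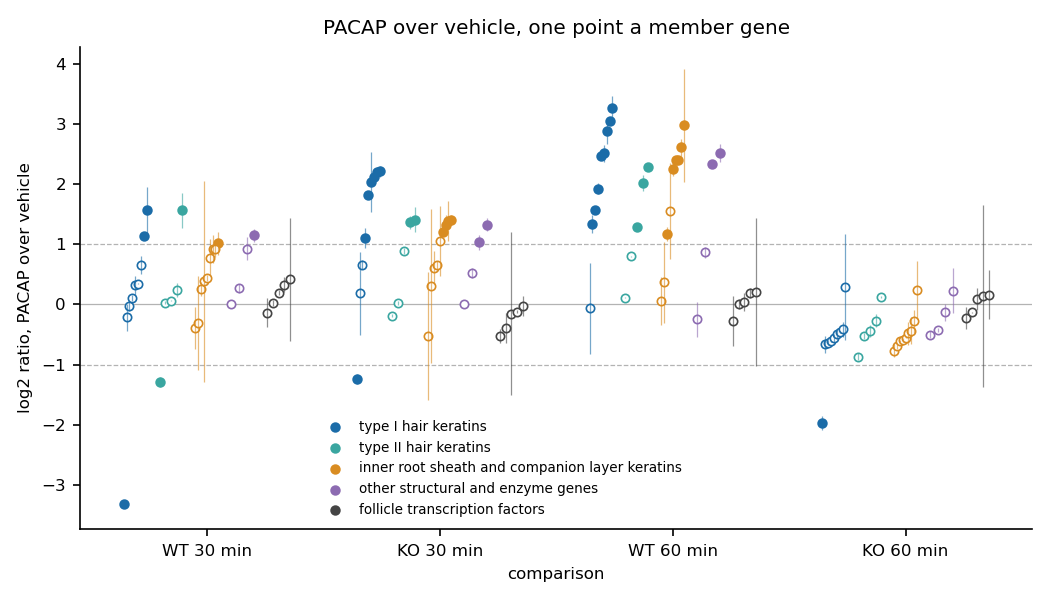
Each point is a member gene, plotted by its log2 ratio of PACAP over vehicle (vertical axis) in the 4 comparisons, with a line joining its values on both arrays. Filled points were counted and open points were not. The structural medians were 0.32, 1.06, 2.02 and -0.50 from left to right, and no transcription factor is filled.

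Among the 9 type I hair keratins, which form the acidic chains of the shaft filaments, 8 were counted as higher in WT 60 min and 6 in KO 30 min. Krt33a had the largest positive ratio of all members, 3.26 on the log2 scale in WT 60 min (3.46 and 3.05 on the arrays, 9.56-fold) and 2.21 in KO 30 min (4.62-fold). Krt33b stood beside it at 3.05 and 2.19. Krt31 was higher by 1.33 in WT 60 min and 1.10 in KO 30 min, and Krt32, a keratin of the hair cuticle, by 1.57 in WT 60 min alone. Krt39 was not well above background on both arrays in any sample, and its arrays pointed in opposite directions in KO 30 min, WT 60 min and KO 60 min.

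Krt34, a keratin of the shaft cortex, was at a log2 level of 9.73 with vehicle and 9.87 with PACAP in WT 30 min, 8.61 and 10.28 in KO 30 min, 8.94 and 11.23 in WT 60 min, and 11.79 and 11.36 in KO 60 min. Its vehicle samples thus spanned more than any pair on the same arrays, and the KO 60 min vehicle sample was the highest of all 8. The ratios on the arrays of a pair were close, 2.53 and 2.40 in WT 60 min and -0.42 and -0.57 in KO 60 min.

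Krt35, which appears early in the hair matrix, was one of the 5 genes higher in 3 comparisons. Its log2 level with vehicle and PACAP was 8.60 and 9.63 in WT 30 min, 8.06 and 9.95 in KO 30 min, 9.62 and 11.46 in WT 60 min, and 12.05 and 11.41 in KO 60 min. The lowest sample and the highest sample were both vehicle samples of KO skin, 3.99 apart. Krt40 was another of the 5, at 6.37 and 6.77, 6.19 and 6.66, 6.34 and 7.49, and 7.94 and 7.50 in the same order of pairs. It was well above background on both arrays in 5 of the 8 samples, and a further Krt40 probe in 0.

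Krt36 was the only member counted in all 4 comparisons and in both directions, although with normexp and loess it was no longer counted in KO 30 min. This type I hair keratin is also known from nail and from the papillae of the tongue. Its log2 level was 10.92 with vehicle and 8.06 with PACAP in WT 30 min, 9.35 and 8.36 in KO 30 min, 7.77 and 9.80 in WT 60 min, and 10.63 and 8.78 in KO 60 min. The PACAP sample was the lower one in every pair but WT 60 min, where the vehicle sample was the lowest of all 8. The log2 ratios were -3.32 (-3.37 and -3.27 on the arrays, 0.100-fold), -1.23, 2.51 and -1.98. Another Krt36 probe gave -2.39, -0.72, 1.66 and -1.61, and a further probe was not well above background on both arrays in any sample.

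The probes of Krt31 to Krt36 lay within 90812 bases of chr11 (mm9 99872578 to 99963389), and in KO 30 min 5 of Krt36's 6 neighbours there were counted as higher. RefSeq promoters (GRCm38.p6) were found for 20 of the 27 structural genes and 4 of the 5 transcription factors, but not for Krt33a, Krt35, Krt74, Krt81, Krt85, Krt86, Dsg4 and Hoxc13. The 100 bases before the start are shown for genes that moved together (Krt33b, chr11:100029869-100029968; Krt34, chr11:100041555-100041654; Krt31, chr11:100050552-100050651; Krt28, chr11:99374904-99375003; Krt71, chr15:101743098-101743197) and for the pair that moved apart from them (Krt36, chr11:100105627-100105726; Krt84, chr15:101532821-101532920), all from the minus strand and written 5′ to 3′. Capitals mark TATAAA, a spelling of the TATA box, or CTTTGA, the core letters bound by LEF1 and TCF proteins. Both were read on either strand (TTTATA and TCAAAG on the other).
Krt33b: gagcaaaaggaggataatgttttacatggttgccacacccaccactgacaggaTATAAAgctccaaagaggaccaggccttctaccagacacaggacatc
Krt34: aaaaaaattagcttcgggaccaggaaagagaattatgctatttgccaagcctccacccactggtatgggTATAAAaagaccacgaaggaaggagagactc
Krt31: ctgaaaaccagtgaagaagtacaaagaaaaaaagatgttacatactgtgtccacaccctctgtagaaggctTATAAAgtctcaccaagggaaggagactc
Krt28: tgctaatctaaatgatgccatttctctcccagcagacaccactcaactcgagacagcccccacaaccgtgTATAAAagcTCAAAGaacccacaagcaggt
Krt71: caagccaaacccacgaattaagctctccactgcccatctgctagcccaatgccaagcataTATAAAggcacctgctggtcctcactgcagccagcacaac
Krt36: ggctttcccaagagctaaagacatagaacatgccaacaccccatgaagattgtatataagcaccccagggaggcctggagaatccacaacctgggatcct
Krt84: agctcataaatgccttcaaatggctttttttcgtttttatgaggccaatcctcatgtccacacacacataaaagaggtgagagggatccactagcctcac

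TATAAA stood in these 100 bases in 11 of the 20 structural promoters and in 0 of the 4 transcription factor promoters, against 5.96% of 27025 promoters. CTTTGA stood in 2 structural promoters, those of Krt28 and Krt39, against 5.05% of all. TAATTG, core letters of MSX sites, stood in those of Krt26 and Krt73, against 2.59% of all, and AGATAA, the letters known for the family of Gata3, in 0 against 3.64%. No pair of these matches overlapped. TATAAA was not in the windows of Krt36 and Krt84, nor in those of Krt39, Krt72, Krt75, Krt82, Padi3, S100a3 and Tchh, of which Krt82 and Tchh were counted as higher in 3 comparisons. A match describes letters only, and other spellings of a TATA box were not searched. The windows of Krt36 and Krt39 hold tatataa, such a spelling. For S100a3 and Lef1, which had 4 promoters each, the first by position was used.

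Of the 5 type II hair keratins measured, the basic partners in the filament, 3 were counted as higher in WT 60 min (Krt81 at 1.29, Krt82 at 2.02 and Krt86 at 2.29) and 2 in KO 30 min. Krt86 had log2 levels of 9.90 with vehicle and 10.15 with PACAP in WT 30 min, 9.36 and 10.65 in KO 30 min, 9.40 and 11.55 in WT 60 min, and 12.25 and 11.81 in KO 60 min. Krt82, a cuticle keratin, was at 6.61 and 7.26, 6.35 and 6.73, 6.79 and 7.96, and 8.17 and 7.93 in that order. Both had their highest level in the KO 60 min vehicle sample, and Krt82 was the only type II hair keratin counted in 3 comparisons.

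Krt84, known from tongue papillae and nail as Krt36 is, was counted once, as lower in WT 30 min at a log2 ratio of -1.29 (-1.21 and -1.38 on the arrays). Its levels were 11.21 with vehicle and 10.04 with PACAP in that pair, 10.37 and 10.39 in KO 30 min, 9.86 and 10.63 in WT 60 min, and 11.24 and 10.45 in KO 60 min. As for Krt36, the vehicle sample was high in WT 30 min and KO 60 min and low in WT 60 min.

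Krt85, a keratin of the hair matrix, was uncertain because its 3 probes differed. The brightest was at 11.39 and 11.42, 10.86 and 10.67, 11.28 and 11.35, and 11.10 and 11.22 with vehicle and PACAP in WT 30, KO 30, WT 60 and KO 60 min. Its log2 ratios lay between -0.19 and 0.13. A second probe lay between -0.25 and 0.50, while the third gave 1.06, 2.19, 2.48 and -0.60.

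The third probe lay at chr15:101261695-101261754 (mm9), 1801 bases from the probe named Krt87 at chr15:101263556-101263615, and the Krt87 probe gave 0.21, 2.02, 2.42 and -0.69.

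The files list transcripts of Krt81, Krt86 and Krt83 under the Krt81 probe, so its signal may come from any of them, and the missing Krt83 could not be read apart. The Krt83 transcript is also listed under the Krt87 probe. The values of Krt81, of Krt87 and of the Krt85 probes are uncertain to that extent.

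**Figure D2:**
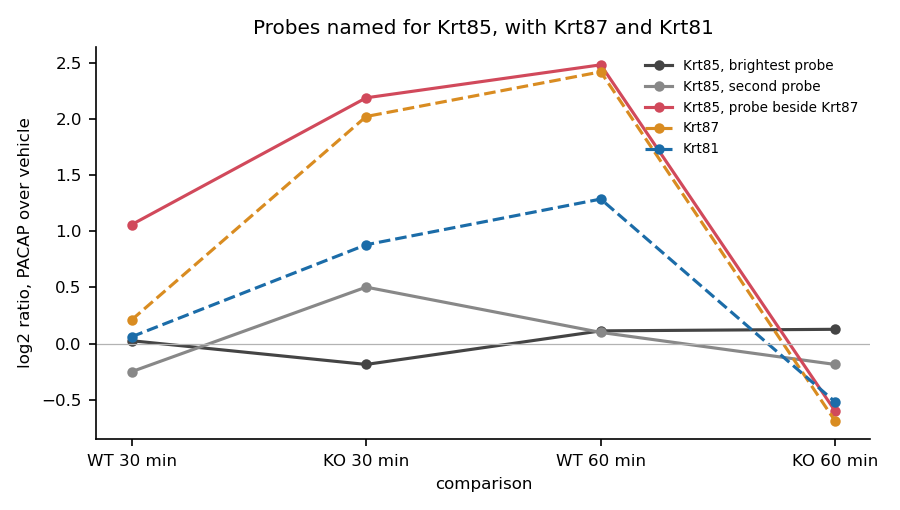
Log2 ratios of PACAP over vehicle (vertical axis) in the 4 comparisons for the 3 probes named Krt85, with the Krt87 and Krt81 probes. The third Krt85 probe and Krt87 stood at 2.48 and 2.42 in WT 60 min, whereas the other Krt85 probes stood near 0.

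Of the 9 keratins of the inner root sheath and companion layer, 6 were counted as higher in WT 60 min, 4 in KO 30 min and 1 in WT 30 min. In KO 60 min 8 of the 9 were lower on both arrays, by up to -0.77 for Krt28, and 0 were counted. Krt71, whose type II chain is found in all layers of the inner root sheath, was at 11.00 with vehicle and 11.92 with PACAP in WT 30 min, 10.15 and 11.41 in KO 30 min, 10.54 and 13.07 in WT 60 min, and 13.59 and 13.12 in KO 60 min.

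Krt28, a type I partner, had levels of 7.19 and 7.85, 7.08 and 7.96, 7.50 and 9.30, and 9.81 and 9.09 in the same order, and was higher in 3 comparisons at 1.01, 1.39 and 2.25 on the log2 ratio scale. Krt26 had a ratio of 2.97 in WT 60 min, with its arrays far apart at 3.91 and 2.04 and its vehicle signal well above background on 1 of them, so the size of the ratio is uncertain. Its levels, 6.46 and 6.52, 6.24 and 6.59, 6.33 and 7.12, and 7.72 and 7.29, were close to the floor of the array, and it was well above background on both arrays in 3 samples. Krt25 (2.40 in WT 60 min and 1.20 in KO 30 min) and Krt27 (2.40 and 1.40) were higher in both of those pairs, and Krt73 (1.17) in WT 60 min alone. Krt72 stood at 0.06 in WT 60 min and was not counted, and Krt74 and the companion layer keratin Krt75 were well above background on both arrays in 0 and 2 samples.

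Tchh, which hardens the inner root sheath and the medulla, was at 9.91 with vehicle and 11.04 with PACAP in WT 30 min, 9.57 and 10.83 in KO 30 min, 9.48 and 11.90 in WT 60 min, and 12.24 and 12.14 in KO 60 min. It was counted as higher in 3 comparisons, at log2 ratios of 1.15, 1.33 and 2.51. The enzyme Padi3 was higher in KO 30 min (1.03) and WT 60 min (2.33). S100a3, a calcium-binding protein of the cuticle and a substrate of deiminases, was not counted, with levels of 12.81 and 13.07, 12.51 and 13.02, 12.96 and 13.86, and 13.85 and 13.41. The desmosomal cadherin Dsg4 was not well above background on both arrays in any sample, and the software had set its ratio to 0 in both pairs at 30 min.

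The transcription factors are given in every sample. Hoxc13 was at 8.42 with vehicle and 8.61 with PACAP in WT 30 min, 8.29 and 8.23 in KO 30 min, 8.17 and 8.34 in WT 60 min, and 8.26 and 8.19 in KO 60 min, and its log2 ratios lay between -0.13 and 0.19. Gata3 was at 8.86 and 9.15, 8.73 and 8.36, 8.38 and 8.47, and 8.35 and 8.36 in that order, with its most negative ratio in KO 30 min at -0.52 (-0.63 and -0.40). In that pair 14 structural genes were counted as higher.

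Msx2 was at 7.94 and 7.88, 8.09 and 8.09, 8.28 and 8.33, and 8.35 and 8.21. Foxn1 was at 7.07 and 7.11, 6.66 and 6.56, 6.60 and 6.57, and 6.32 and 6.40. Its lowest mean fell in the KO 60 min vehicle sample (6.36 and 6.28 on the arrays). The arrays of the PACAP sample of that pair (6.51 and 6.28) overlapped it. Lef1 was at 6.27 and 6.37, 6.15 and 6.13, 6.08 and 6.19, and 6.11 and 6.15, and in every sample only a single array of the pair had it well above background. Its ratio was positive on array 1 and negative on array 2 of every pair, as the dyes were swapped, and gives no direction.

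**Figure D3:**
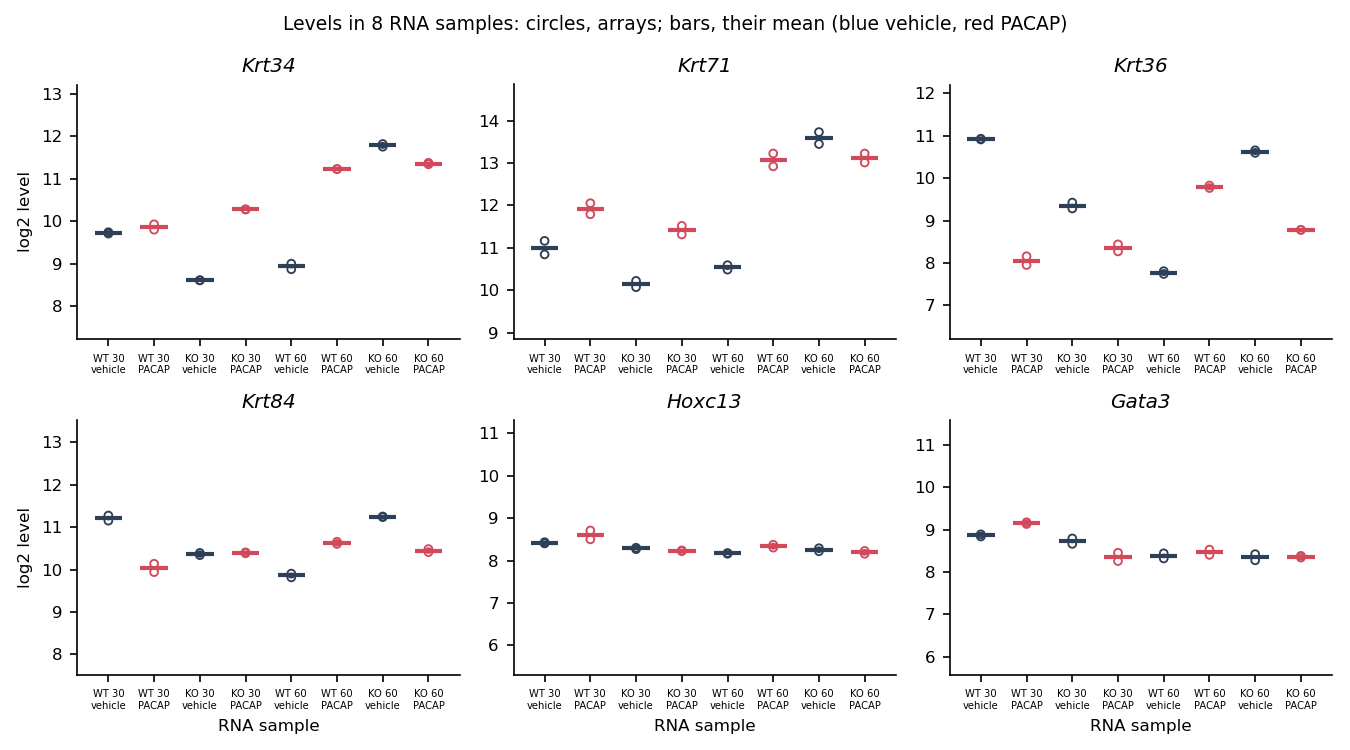
Log2 level (vertical axis) of 6 members in the 8 RNA samples, with a circle for each array and a bar for their mean, vehicle in blue and PACAP in red. Each panel spans the same range. Krt34 and Krt71 were highest in the KO 60 min vehicle sample at 11.79 and 13.59, Krt36 and Krt84 were high in the WT 30 min vehicle sample at 10.92 and 11.21, and Hoxc13 stayed between 8.17 and 8.61.

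On the level scale the vehicle samples differed from each other by more than PACAP differed from vehicle. There, the range over the 4 vehicle samples exceeded the difference of every PACAP sample from its own vehicle in 27 of 27 structural genes, but also in the 5 transcription factors and in 76.6% of all genes, so the count itself does not set the structural genes apart. Levels of dim genes are compressed by the offset, which the scanner software's ratios do not have. For 10 genes the scanner log2 ratio was larger than the vehicle range of the levels, although these are unlike measures. Of these, Krt32, Krt36, Krt82 and Padi3 were counted with a vehicle signal well above background on both arrays of WT 60 min or, for Krt36, of WT 30 min. Krt26 and Krt40 had such a signal on 1 array of WT 60 min, and Dsg4, Krt39, Krt74 and Krt75 were dim and not counted. The vehicle range had a median of 1.97 on the log2 scale in the structural genes, 0.41 in the transcription factors and 0.24 in all genes. It passed 2-fold in 20 structural genes and 8-fold in 8, counts that were not made over all genes. The KO 60 min vehicle sample was the highest of all 8 samples for 22 structural genes, and the KO 30 min vehicle sample the lowest for 21. The share of all genes highest or lowest in these samples was not counted.

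The order of the 8 samples by the structural median level was KO 30 min vehicle (8.28), WT 60 min vehicle (8.52), KO 30 min PACAP (9.11), WT 30 min vehicle (9.17), WT 30 min PACAP (9.33), KO 60 min PACAP (10.02), WT 60 min PACAP (10.14) and KO 60 min vehicle (10.63). The medians of KO 30 min PACAP, WT 30 min vehicle and WT 30 min PACAP differed by less than the gap of 0.25 between the arrays of the WT 30 min vehicle sample. The lowest and the highest sample of the order were thus both vehicle samples of KO skin.

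Within the KO slide, 19 of 27 structural genes were at least 2-fold higher in the 60 min than in the 30 min vehicle sample, against 0.797% of all genes, and 0 were at least 2-fold lower, against 0.149%. The median difference was 1.82 on the log2 scale. Krt35 differed 15.9-fold, Krt33a 13.5-fold and Krt27 13.2-fold. Within the WT slide, 1 structural gene (Krt35, 2.02-fold) was at least 2-fold higher in the 60 min vehicle sample, against 0.243% of all genes, and 3 were at least 2-fold lower, against 0.176%. The largest difference there was that of Krt36, at -3.15. Across slides, 19 were at least 2-fold higher in the KO than in the WT vehicle sample at 60 min, against 0.638% of all genes, and 0 were lower by as much, against 0.0844%. At 30 min 0 were at least 2-fold higher in the KO vehicle sample, against 0.101% of all genes, and 5 at least 2-fold lower, against 0.361%.

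The PACAP samples differed less across slides. At 60 min the structural median of KO minus WT was -0.05, where 0 genes were at least 2-fold higher (0.25% of all genes) and 1 at least 2-fold lower (0.0709%). At 30 min it was 0.03, with 0 genes at least 2-fold higher or lower where 1.16% and 0.905% of all genes were. From 30 to 60 min, 12 structural genes were at least 2-fold higher in the WT PACAP samples (0.554% of all genes) and 11 in the KO PACAP samples (0.567%), with 0 at least 2-fold lower in either (0.551% and 0.162%). The median differences with time were 0.88 in WT and 0.92 in KO. In skin RNA, fewer follicle cells and less RNA per cell cannot be told apart.

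In KO skin the direction of the PACAP difference turned on which vehicle sample was used. The comparison was made on the level scale, where the structural medians against the own vehicle sample were 0.26 in WT 30 min, 0.56 in KO 30 min, 1.17 in WT 60 min and -0.43 in KO 60 min. Set against the vehicle sample of the same genotype and slide at the other time, they were 0.28, -1.33, 1.31 and 1.50 in that order, so both KO medians changed sign and the WT medians stayed close. Set against the mean of all 4 vehicle samples, the medians were -0.020 in KO 30 min, 0.88 in KO 60 min, 0.036 in WT 30 min and 0.91 in WT 60 min. These controls were chosen after the vehicle levels were seen.

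**Figure D4:**
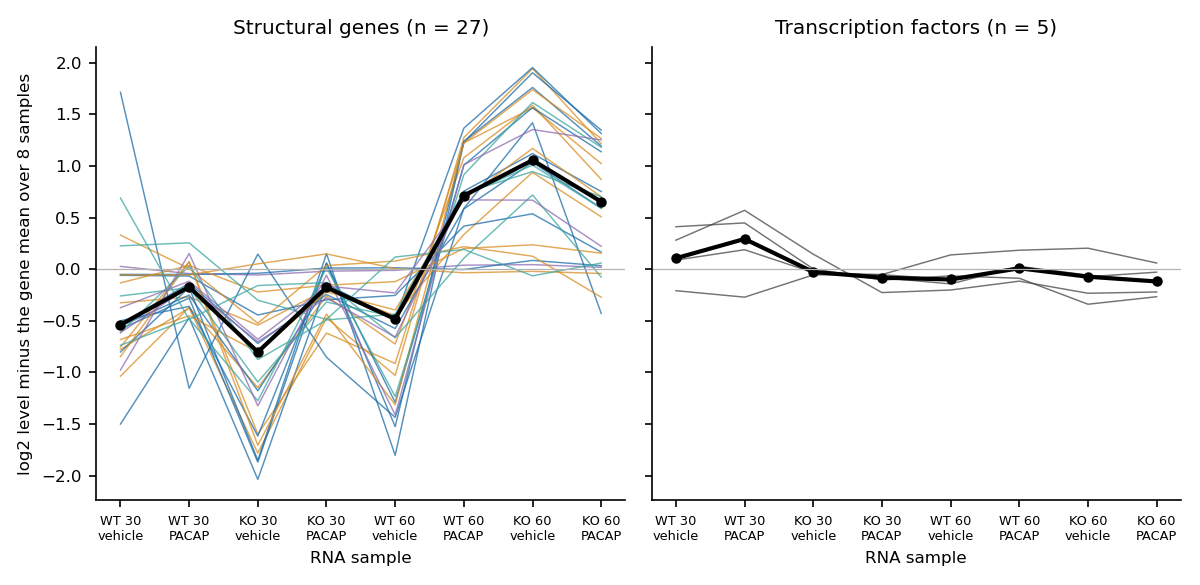
Log2 level of each gene minus its own mean over the 8 RNA samples (vertical axis), for 27 structural genes (left) and 5 transcription factors (right). Thin lines are genes, with type I hair keratins in blue, type II in green, inner root sheath and companion layer keratins in orange and the other structural genes in purple, and the thick line is the median. Vehicle samples held both the lowest and the highest structural levels, while the factors stayed close to their mean.

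Most structural genes had a like profile across the samples, which is a description, since the members were chosen with earlier results known. Over the 8 samples, which are tied in pairs by array, 19 of 27 correlated at 0.90 or more with the median of the other structural genes, Krt71 the most at 0.99. Krt35 stood at 0.89, Krt84 at 0.50, Krt72 at 0.31, Krt36 at 0.30, Krt85 at 0.23 and Krt74 at -0.41. Of the structural genes with a promoter, all 11 with TATAAA and 5 of the 9 without it were at 0.90 or more. The transcription factors lay between -0.42 (Foxn1) and 0.44 (Msx2). Across the 27 genes, which share probes and libraries and are no replicates, the ratios of KO 30 min and WT 60 min correlated at 0.65, and at 0.85 without Krt36. With KO 60 min, the correlation was -0.52 for WT 60 min (-0.59 without Krt36), 0.01 for KO 30 min (-0.56) and 0.46 for WT 30 min (-0.15), so 1 gene moved it widely. With WT 30 min, it was 0.74 for KO 30 min (0.63) and 0.30 for WT 60 min (0.63).

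**Figure D5:**
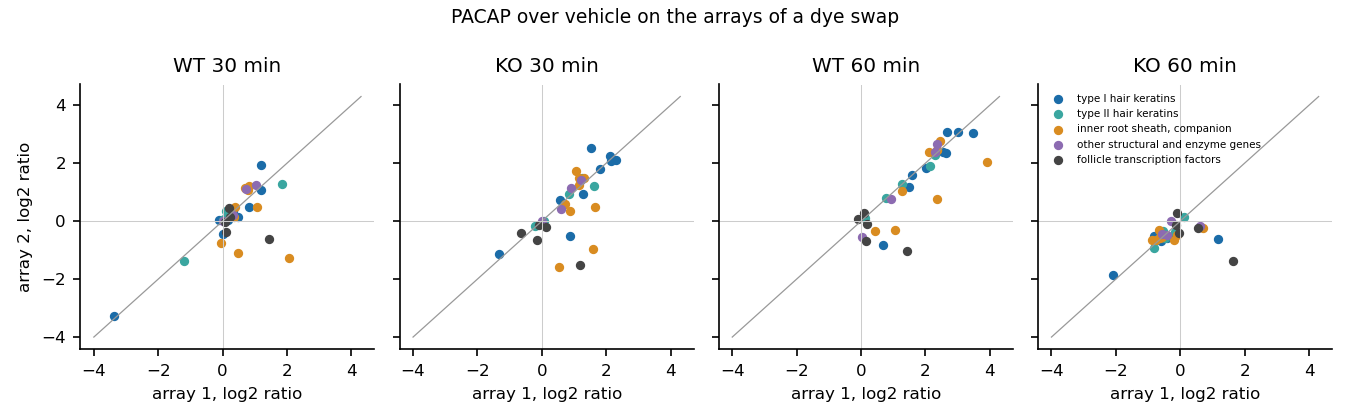
Log2 ratio of PACAP over vehicle on array 1 (horizontal axis) and array 2 (vertical axis) of each dye swap, with a point for each of the 32 members and the line of equal values. Over the 27 structural genes the arrays correlated between 0.66 and 0.86, and dim genes such as Lef1, at 1.43 and -0.60 in WT 30 min, lay off the line. Read as red over green instead, all probes correlated between 0.31 and 0.54 and the structural genes negatively. Over all probes the arrays of a pair thus did not agree in PACAP over vehicle.

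Other follicle genes were read beside the members. Of 20 genes of follicle signalling (such as Wnt10b, Shh and Bmp4), 14 other follicle transcription factors, 15 genes of crosslinking and adhesion, 9 of the dermal papilla, 8 of matrix proliferation, 8 of hair bulb melanocytes, 8 of the sebaceous gland and 10 of the eccrine gland, 0 were counted in any comparison. As at most 0.692% of all genes were counted in a direction, 0 in lists of this size says little. Of 9 genes of the outer root sheath and bulge, Krt17 was counted as higher in KO 30 min (1.20), WT 60 min (1.07) and KO 60 min (1.07). In KO vehicle skin, the median difference of 60 from 30 min was -0.80 for matrix proliferation, -0.44 for the other follicle factors, -0.16 for follicle signalling, -0.19 for the dermal papilla, 0.00 for the outer root sheath and bulge, 0.22 for melanocytes and 0.43 for the sebaceous gland, beside 1.82 for the structural genes. The keratin-associated proteins, which bind the shaft keratins together, were measured by 53 genes, of which 44 were counted as higher in WT 60 min, 36 in KO 30 min, 3 in WT 30 min and 0 in KO 60 min. As lower, 0, 1, 10 and 17 were counted in that order, beside the shares of all genes given above. Their median vehicle level was highest in KO 60 min at 11.13, with 8.87 in WT 30 min and 8.19 in WT 60 min, and lowest in KO 30 min. They had medians of -0.25, 1.49, 2.10 and -0.50 in WT 30, KO 30, WT 60 and KO 60 min.

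Markers of other tissues moved in the pairs at 30 min. Of 10 skeletal muscle genes, all well above background in every sample, 2 (Myh4 at 1.46 and Myh1 at 1.42) were counted as higher in WT 30 min and 4 (Myh4 at -1.31, Actn3 at -1.21, Myh1 at -1.17 and Acta1 at -1.13) as lower in KO 30 min, with the summed muscle level between 16.55 and 17.14 in vehicle and between 16.34 and 17.50 in PACAP samples. In the pairs at 60 min 0 muscle genes were counted. Of 10 palm epidermis genes, Krt10 (-1.45) and Krt1 (-1.14) were counted as lower and Krt16 (1.15) as higher in KO 30 min, and Krt16 also as higher in WT 60 min (1.20) and KO 60 min (2.43). In KO 30 min all 10 eccrine genes had a negative log2 ratio (median -0.48, highest -0.05), as had all 14 other follicle transcription factors (median -0.34, highest -0.06). The part of these shifts in the results on the follicle genes was not tested.

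With 4 pairs, tests across comparisons with limma, adjusted over all probes, gave 0 members. For an effect of PACAP shared by the 4 comparisons, 0 of 30351 probes passed (0.0%), 678 had an unadjusted p below 0.05, and so did 7 of the 36 member probes. Krt82 had the smallest p of the members, at a mean log2 ratio of 1.18 ± 0.35 (SE, limma, adjusted p = 1), positive in 3 of 4 comparisons, though its vehicle signal was well above background on 1 array in both pairs at 30 min, followed by Tchh at 1.21 ± 0.38. A difference between KO and WT was found for 0 probes (0.0%; 972 with an unadjusted p below 0.05, among them 1 member, Krt75), and one between 60 and 30 min for 0 probes (0.0%; 483 and 1 member, Krt74). These designs could not have told genotype from slide.

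The vehicle levels gave 0 of 24903 probes as well for KO against WT (0.0%; 1254 with an unadjusted p below 0.05, 0 members). For 60 against 30 min they also gave 0 (0.0%). There 4385 probes, or 17.6%, had an unadjusted p below 0.05, and 3 of 32 member probes, a smaller share. Those 3 were Gata3, lower at 60 min by -0.43 ± 0.11 (SE, limma, adjusted p = 0.196), Krt35, higher by 2.50 ± 0.76 (limma, adjusted p = 0.218), and Msx2, higher by 0.30 ± 0.11 (limma, adjusted p = 0.263). Leaving out the WT 60 min vehicle sample, which leaves a single sample in an arm that is assumed to vary like the others, brought 18 members past the threshold for time, with 0.916% of all probes. Leaving out the KO 30 min vehicle sample likewise brought 8 past it for genotype, with 0.261% of all probes. For the PACAP effect of KO against WT, 16 members passed without WT 30 min, with 0.56% of all probes, and 1 without WT 60 min, with 0.273%. For that of 60 against 30 min, 1 passed without KO 60 min, with 0.0593%.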

How the data were processed

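Total RNA of palm skin was measured on 8 Agilent mouse arrays, each read in Cy3 and Cy5. The authors used Agilent's Feature Extraction software on the scans. The scan headers give release 12.0.3.1, the submitters' processing notes 11.0.1.1 and the published methods another release. The software corrected the background and normalized the dyes by LOWESS within each array. The deposited log10 ratios are red over green, and the deposited p-value of a spot comes from that software's error model. The deposited intensity values per channel are mean signals, local backgrounds and processed signals. The value table of the series repeats the deposited log10 ratio, equal to the scanner files within 5e-10.

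Control spots and outlier spots (198 to 342 an array, 0 of them of members) were left out. Ratios were turned to log2 of PACAP over vehicle by the dye of each sample, averaged over spots and over both arrays, and a gene was taken from its brightest probe. Levels were log2 intensities after normexp with an offset of 50, loess and Aquantile, averaged over the dye swap. limma 3.58.1 in R 4.3.3 (lmFit, eBayes, Benjamini-Hochberg over all probes, threshold 0.05) tested ratios of probes with a channel well above background on every array, and levels of those well above it on both arrays of at least 1 vehicle sample, and all other steps ran in Python 3.11.15. The steps were tested on simulated data.

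Values are given in every sample for the transcription factors, for the brightest member and the member with the largest ratio of each structural group, and for members counted in 3 or 4 comparisons. Krt84 and Krt87 were named in this way after their values were seen. The members and lists were chosen with earlier results of these data known. Arrays with the same number have the same dye orientation, and their deviations from the comparison means correlated between 0.70 and 0.85. Alternatives were other normalizations, centring, filters, probes and call rules, single arrays, left-out comparisons and the series matrix. No sample was left out. A comparison of probe sequences is not reported here.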

Additional observations from a re-analysis of the deposited data

Results flagged for a closer look

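In 21 structural genes both arrays of WT 60 min pointed up and both arrays of KO 60 min pointed down, a difference between the genotypes that was not tested as such. In 20 structural genes both arrays of KO 30 min pointed up and both arrays of KO 60 min down, a difference between the times that was not tested as such. Neither count was made over all genes. The KO 60 min pair, which takes part in both, held the vehicle sample with the highest structural median level (10.63).

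Krt36 was counted as lower in WT 30 min and as higher in WT 60 min, with ratios that differed by 5.83 on the log2 scale. Its ratio in KO 60 min lay below that in WT 60 min, with a difference of -4.48. Both differences are between single pairs of RNA samples and were not tested.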

How the results depend on the processing

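The direction of the structural medians was the same in all 32 alternatives chosen at the outset. Among these, centring, outlier spots and the series matrix could hardly move a median, and single arrays came from the same RNA pair. No alternative among the 32 changed the vehicle sample. The medians were nearer to 0 with normexp and loess in KO 30 min (0.56), WT 60 min (1.17) and KO 60 min (-0.43), and over all probes of a gene in WT 60 min (1.66) and KO 60 min (-0.48). Single arrays gave -0.54 to -0.54 in KO 60 min. With normexp and loess 2 structural genes were counted as higher in WT 30 min, 9 in KO 30 min, and 0 as lower in KO 30 min, where Krt36 no longer passed. Single arrays counted 5 to 8 as higher in WT 30 min, with 8 on array 2. On the level scale, where normexp and loess give 0.26 in WT 30 min beside the values above, the vehicle sample of the other time, an alternative added after seeing the data, gave a median of -1.33 in KO 30 min, 1.50 in KO 60 min and 1.31 in WT 60 min, and the mean of all 4 vehicle samples gave -0.020, 0.88 and 0.91, and 0.036 in WT 30 min. The cause was not tested.

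Leaving out a comparison gave 0 to 16 members with a PACAP effect differing between KO and WT (16 without WT 30 min, 1 without WT 60 min), 0 to 1 differing between 60 and 30 min (1 without KO 60 min), 0 to 8 with a vehicle level differing between KO and WT (8 without KO 30 min) and 0 to 18 differing between 60 and 30 min (18 without WT 60 min). With the replicate block, in which the array number was a term and the comparison a random block, 0 members had a shared PACAP effect, as without it, and the other effects were not fitted with the block. The number of arrays and 1 RNA pair a comparison limit all of these values.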
